A study of Mus musculus with 5 samples.

Results

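The RNAs described here are 5 short structured RNAs made by RNA polymerase III: Rn7sk (the 7SK RNA), Rpph1 (the RNA of RNase P), Rmrp (the RNA of RNase MRP), and the Y RNAs Rny1 and Rny3. They were taken by gene symbol from the authors' deposited table, in which they are 5 of 51912 rows, and they were picked with their stroke against sham values known. Those values are therefore given as a description. The study compared 2 sham libraries with 3 stroke libraries from C57BL/6 mice (C57BL/6J in the source field); every library carries the same strain label, and no allele or transgene is given. In the stroke mice a silicon-coated filament closed the middle cerebral artery for 30 minutes, and mice entered the study only if cerebral blood flow fell by at least 80%. What was done to the sham mice is not described. Anesthesia was ketamine and xylazine, motor function was scored after 24 hours, and the labels name neither the tissue nor the time of sampling. They do not say whether each library came from a separate animal, so the authors' p-values measure only the spread between these 5 samples, which may be technical. RNA was extracted with TRIzol and a column, and libraries were made with a stranded kit for messenger RNA.

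RNA polymerase III makes small RNAs that act without being translated, and its transcripts usually end in a run of T in the gene rather than in a poly(A) tail. The 7SK RNA holds the elongation factor P-TEFb in an inactive particle with the proteins Larp7, Mepce and Hexim1, and so limits how fast RNA polymerase II elongates. RNase P trims the leader of transfer RNA precursors, RNase MRP cuts ribosomal RNA precursors, and both share most of their proteins. Y RNAs bind the Ro60 protein (Trove2), which takes part in RNA quality control.

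The 5 genes lie on GRCm38 as follows, by the GENCODE M21 annotation, in which each is a single-exon noncoding gene. Rn7sk (ENSMUSG00000065037) is at chr9:78175303-78175633 on the minus strand, 331 bases long. Rpph1 (ENSMUSG00000092837) is at chr14:50807449-50807767 on the minus strand, 319 bases long. Rmrp (ENSMUSG00000088088) is at chr4:43492788-43493058 on the minus strand, 271 bases long. Rny3 (ENSMUSG00000064945) is at chr6:47781624-47781725 on the plus strand, 102 bases long. Rny1 (ENSMUSG00000065701) is at chr6:47788069-47788180 on the minus strand, 112 bases long, and 6343 bases separate it from Rny3.

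The 3′ ends are shown because kits for messenger RNA commonly capture RNAs by a run of A, and the capitals mark a run of 3 or more T at the annotated 3′ end. The sequences are those of the GENCODE transcripts, 5′ to 3′, with the last 120 bases of the 3 longer RNAs and the whole of both Y RNAs.
Rn7sk: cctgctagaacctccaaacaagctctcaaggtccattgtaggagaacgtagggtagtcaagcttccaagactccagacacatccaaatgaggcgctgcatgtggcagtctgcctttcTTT
Rpph1: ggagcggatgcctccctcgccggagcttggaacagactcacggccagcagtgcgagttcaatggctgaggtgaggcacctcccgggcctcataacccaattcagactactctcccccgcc
Rmrp: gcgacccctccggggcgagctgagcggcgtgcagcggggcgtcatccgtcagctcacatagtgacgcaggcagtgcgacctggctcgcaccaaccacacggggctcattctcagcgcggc
Rny1: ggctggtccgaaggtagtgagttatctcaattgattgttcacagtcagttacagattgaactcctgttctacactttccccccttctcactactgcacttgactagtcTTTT
Rny3: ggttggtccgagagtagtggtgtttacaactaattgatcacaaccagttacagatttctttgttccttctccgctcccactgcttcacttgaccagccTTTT

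The annotated 3′ end of Rn7sk carries 3 T and those of Rny1 and Rny3 carry 4, while the annotated Rpph1 and Rmrp transcripts stop before any T. A final TTT is present in 6.13% of the 11793 GENCODE transcripts of 100 to 350 bases. The longest run of A in any of the 5 RNAs is 3 bases, and none holds AAAAAA on the transcript strand, a string that 7.88% of those transcripts hold. GC content was 67.1% in Rpph1, 64.2% in Rmrp and 58.0% in Rn7sk, against 45.1% in Rny3 and 43.8% in Rny1. The Y RNAs share 72.3% of aligned positions with each other.

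The deposited table gives, for each gene, a mean of normalized reads over the libraries, a log2 fold change of stroke over sham with its standard error (SE), and a p-value, but no value per library. Normalized reads are reads divided by a library's size factor, a scale for its depth. For 8629 of 8645 genes searched, exactly 1 set of whole reads per library gave back the deposited mean, fold change and standard error, and all 5 RNAs were among them. Nothing ties the recovered libraries to the numbers in the labels, so they are named here by size factor: stroke A (1.157), stroke B (1.131), stroke C (1.116), the deeper sham (0.9448) and the shallower sham (0.7339).

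Both sham libraries stood apart from the stroke libraries in other genes. Of the 8507 recovered genes that the authors tested, 353 were at least 10 times higher in the shallower sham than in every other library, or 4.15%. The share was 0.376% in the deeper sham (32 genes), 0.106% in stroke C (9 genes) and 0.0118% in stroke A and in stroke B (1 gene each). The deeper sham was the library high in choroid plexus and red cell markers: Ttr was at 12947 normalized reads there and between 15.03 and 69.5 in the other 4 libraries, and Hbb-bs was at 1629 there and between 44.8 and 275 elsewhere. Markers of neurons, astrocytes, oligodendrocytes, microglia and endothelium were all detected, each with a mean of at least 100 normalized reads, and none of these 22 passed the authors' threshold. Of the choroid plexus and red cell markers, Ttr, Hba-a1, Hbb-bs and Alas2 did pass, all lower in stroke, beside 1.56% of all tested genes in either direction. The liver markers Alb and Apoa1 had means of 0.743 and 6.25. Of the skeletal muscle markers, Acta1 had a mean of 169 and Ckm of 1.85. A single mean over the sham group therefore joins a pair of libraries that differ strongly, and the values of the 5 RNAs and the medians of the gene lists are given below with and without the shallower one.

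**Figure D1:**
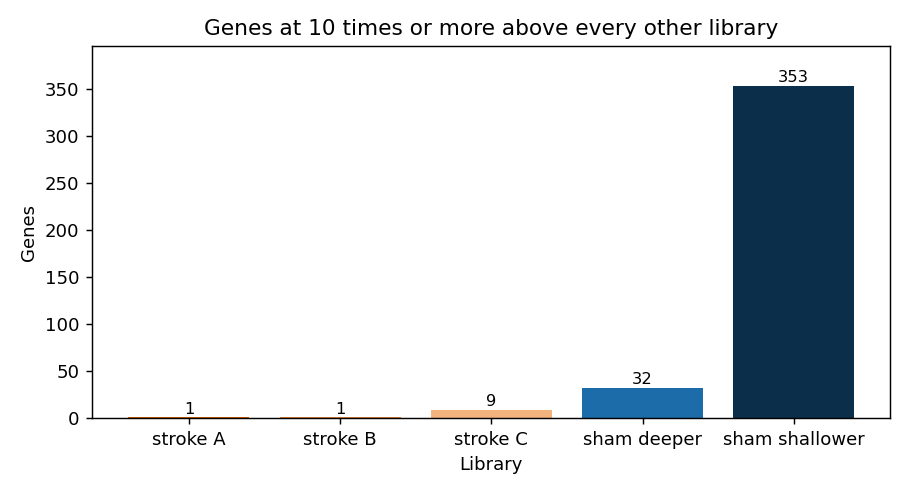
Bars give, for each library on the horizontal axis, the number of recovered tested genes whose normalized reads were at least 10 times those in every other library, with other libraries set to no less than 3 reads. The shallower sham has 353 such genes, the deeper sham 32, and the stroke libraries 9 or fewer each.

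By the accepted read set, Rn7sk had 118 reads in stroke A, 248 in stroke B, 171 in stroke C, 123 in the deeper sham and 144119 in the shallower sham. A second set, which was rejected, is given with the data processing. As normalized reads these are 102, 219, 153, 130 and 196364. The shallower sham is the only high library; the other 4 lie within the range of the stroke group, where the mean was 158 ± 58.8 (SD, n = 3). The shallower sham held 99.7% of the normalized Rn7sk reads and stood 1508 times above the deeper sham (95% counting interval 1264 to 1815). Such intervals cover counting error only, since reads from PCR are not independent molecules.

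Rpph1 had 36, 40 and 12 reads in stroke A, B and C, 2 in the deeper sham and 22240 in the shallower sham. Normalized, the stroke libraries were at 31.1, 35.4 and 10.8, the deeper sham at 2.12 and the shallower sham at 30302. The stroke libraries lay between the sham libraries, above the one and far below the other, with a stroke mean of 25.7 ± 13.2 (SD, n = 3). The shallower sham was 857 times above stroke B, the highest of the other 4.

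Rmrp had 24, 17 and 4 reads in stroke A, B and C, 3 in the deeper sham and 7814 in the shallower sham. Normalized, these were 20.7, 15.03, 3.58, 3.18 and 10647. The 95% counting intervals of stroke C and the deeper sham overlap, at 1.09 to 10.2 reads and 0.619 to 8.77 reads. The shallower sham was 513 times above stroke A, the highest of the others.

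Rny3 had 21, 8 and 3 reads in stroke A, B and C, 1 in the deeper sham and 500 in the shallower sham, or 18.2, 7.07, 2.69, 1.06 and 681 normalized reads. Rny1 had 21, 13 and 2 reads in stroke A, B and C, 0 in the deeper sham and 249 in the shallower sham, or 18.2, 11.5, 1.79, 0 and 339 normalized reads. Both Y RNAs thus repeated the same order of sham libraries at far lower levels. The shallower sham stood 37.5 times above stroke A for Rny3 and 18.7 times above stroke A for Rny1. Against the deeper sham, where a count of 0 allows up to 3 reads, or 3.18 normalized reads, Rny1 was 107-fold higher in the shallower sham; the lower 95% counting limit of the ratio was 86.2.

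The shallower sham was the highest library for all 5 RNAs, as it was for 35.3% of the recovered tested genes. The deeper sham was the lowest library for 4 of the 5, all but Rn7sk, as it was for 19.2% of those genes. As the RNAs were picked with their stroke against sham values known, nothing is read from these shares.

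**Figure D2:**
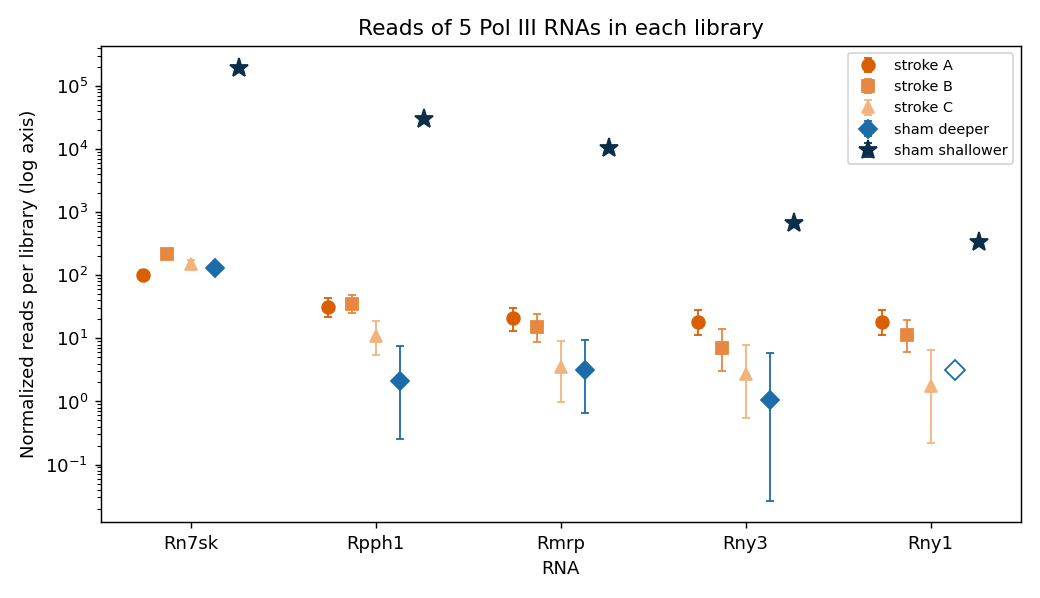
Normalized reads of each RNA (horizontal axis) in each library on a log axis, with bars for the 95% Poisson interval of the reads; the open symbol marks 0 reads, drawn at the level of 3 reads. The shallower sham (star) lies above every other library for each RNA, from 339 for Rny1 to 196364 for Rn7sk.

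In the authors' comparison all 5 RNAs had lower estimates in stroke. The authors' deposited table gives log2 fold changes of -9.28 (SE 2.14) for Rn7sk, -9.20 (SE 2.47) for Rpph1 and -8.66 (SE 2.34) for Rmrp. Their adjusted p-values, from the DESeq2 Wald test with Benjamini-Hochberg adjustment, were 0.0035, 0.021 and 0.022. For Rny3 the authors' deposited table gives -5.20 (SE 2.16) with an adjusted p of 0.28 from DESeq2, and for Rny1 -4.02 (SE 2.60) with 0.67. So 3 of the 5 passed the threshold of 0.05, all lower in stroke; over all 17420 tested genes 1.56% passed, 0.786% with a lower and 0.775% with a higher value in stroke. Since the RNAs were chosen on this contrast, nothing is read from the difference between these shares.

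Without the shallower sham the estimates had the opposite sign. The stroke libraries together then stood 12.2 times above the deeper sham for Rpph1 (95% counting interval 3.28 to 102) and 4.16 times above it for Rmrp (1.34 to 20.9). For Rny3 the ratio was 8.88 (1.48 to 362), resting on 1 read in the deeper sham. Rny1 had no read there, and its stroke mean was 3.30-fold higher than the level of 3 reads, with a lower 95% counting limit of 2.57 for the ratio. For Rn7sk, the only one with over 100 reads in every library, the ratio was 1.21 (0.994 to 1.49), and the interval includes 1. All 3 stroke libraries were above the deeper sham for 4 of the 5 RNAs and 2 of 3 were for Rn7sk, where stroke A was lower; all 3 stroke libraries were above the deeper sham for 25.0% of the recovered tested genes and below it for 40.5%. A limma fit on the recovered reads, added after the data were seen, called none of the 5 with all libraries, where 0.0235% of recovered tested genes passed its Benjamini-Hochberg adjusted threshold of 0.05. None of the 5 had an unadjusted p under 0.05 in it. Without the shallower sham it called none of the 5 and 3.08% of genes, with 2 of the 5 at an unadjusted p under 0.05; without the deeper sham it called all 5, lower in stroke, and 19.1% of genes. With 1 sham library left, these fits assume that it varies as the stroke libraries do. By the ratio of mean normalized reads, leaving out any library other than the shallower sham kept the estimates of all 5 RNAs below 0, between -10.28 for Rn7sk and -3.52 for Rny1. In bulk tissue, fewer cells of a type and less RNA per cell cannot be told apart.

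**Figure D3:**
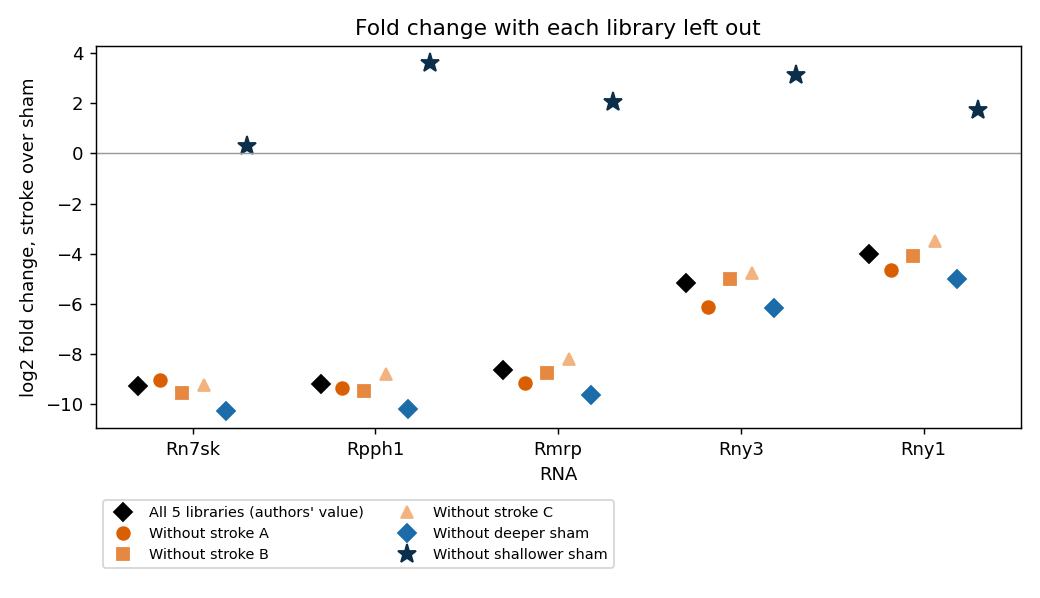
Log2 fold change of stroke over sham (vertical axis) for each RNA, from the authors with all 5 libraries and from the recovered reads with each library left out; no error is drawn. The values without the shallower sham lie at 0.28 or above, the Rny1 value being computed with 3 reads set for the deeper sham, and all other values lie at -3.52 or below.

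The sham libraries also differed in how the 5 RNAs compared with each other per length. In the shallower sham the level per 100 bases of RNA was, in descending order, Rn7sk 59324, Rpph1 9499, Rmrp 3929, Rny3 668 and Rny1 303 normalized reads. Rn7sk was again the most abundant per length in each of the other 4 libraries, at 30.8 to 66.2 normalized reads per 100 bases. The order below it was not the same there. Stroke A had Rny3 at 17.8 and Rny1 at 16.2 normalized reads per 100 bases, above Rpph1 at 9.75 and Rmrp at 7.65, whereas stroke C had all 4 between 1.32 and 3.37. The ratio of Rn7sk to Rny1 per base was 196 in the shallower sham and 1.90, 6.45 and 28.9 in stroke A, B and C. The ratio of Rpph1 to Rmrp per base was 2.42 in the shallower sham, between 1.27 and 2.55 in the stroke libraries, and 0.566 in the deeper sham, where it rests on 2 and 3 reads.

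Within the stroke group Rn7sk followed another order than the other 4 RNAs. Its lowest library was stroke A and its highest stroke B, with a highest to lowest ratio of 2.15. The other 4 were lowest in stroke C, with ratios of 3.29 for Rpph1, 5.79 for Rmrp, 6.75 for Rny3 and 10.1 for Rny1. These last ratios rest on 2 to 12 reads in stroke C.

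The shift between the sham libraries was large for these RNAs. The shallower sham held 91.5 to 99.7% of their normalized reads, and they were picked with their stroke against sham values known. Their place among all genes therefore reflects that choice, and the ranks are given as a description. On the scale of log2(normalized reads + 1), the shallower sham minus the deeper sham was 13.25 for Rpph1, 11.32 for Rmrp, 10.55 for Rn7sk, 8.41 for Rny1 and 8.37 for Rny3. The median over the 8507 recovered tested genes was -0.03, and the middle 95% ran from -2.48 to 5.18. No gene had a larger value than Rpph1, and 6 genes, 4 of them from this group, had a larger value than Rny3. The recovered genes were those whose search was small enough to finish, 8507 of the 17420 tested, so they are not a random draw from the table.

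Outside the 5 RNAs themselves, the named genes with the most similar profiles over the 5 libraries were histone genes and a small Cajal body RNA. Likeness was the Euclidean distance between profiles of log2(normalized reads + 1) centred on their mean, over 5 libraries. Some of the 5 RNAs were nearer to each other than to any of these, at 1.41 for Rny1 and Rny3 and 1.58 for Rmrp and Rpph1. With the 5 RNAs and predicted gene names left out, the 3 nearest genes were the same for Rn7sk, Rpph1 and Rmrp: Hist1h4d, Hist1h1a and Scarna2. Their distances ran from 1.92 (Hist1h4d to Rn7sk) to 4.41 (Scarna2 to Rpph1). Hist1h4d had 2, 4 and 3 reads in stroke A, B and C, 0 in the deeper sham and 953 in the shallower sham. For Rny1 the nearest were Hist2h2bb, Hist1h2ak and Hist1h4a, at 2.31 to 2.64. For Rny3 they were Hist2h2bb, Hist1h2ak and Hist1h1a, at 1.57 to 2.03. All of these genes were highest in the shallower sham.

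Other RNAs that normally lack a poly(A) tail were examined by list. Small nucleolar and Cajal body RNAs guide modification of ribosomal and spliceosomal RNA. The list took only symbols that begin with Snora, Snord or Scarna, so genes of these classes with predicted names are not in it. Some such genes were tested, and those high in the shallower sham are counted further below. Of the listed genes, 7 were tested. In the authors' comparison 3 fell in stroke and none rose. The median log2 fold change of the 7 was -3.93, beside -0.02 over all tested genes. Genes with means under 9.19 normalized reads were not tested. Scarna2, Scarna13, Snora73b and Scarna6 were under that level in every library but the shallower sham, so they were tested only through it. The filter thus partly sets these counts and the median, and nothing is read from them. Over all tested genes 0.786% passed lower and 0.775% higher in stroke. Without the shallower sham, the median over these 7, as log2 of (normalized reads + 1) from the recovered reads, was 0.52 against -0.10 over all recovered tested genes. Scarna2 had 4, 4 and 3 reads in stroke A, B and C, 6 in the deeper sham and 848 in the shallower sham. Its log2 fold change in the authors' deposited table was -7.49 (SE 1.87, adjusted p = 0.010 in DESeq2). Scarna13 had 3, 1 and 3 reads in stroke, 4 in the deeper sham and 335 in the shallower sham, and Snora73b had 5, 9 and 8, then 4 and 142. Scarna6, which did not pass, had 3, 1 and 3 reads in stroke, 1 in the deeper sham and 67 in the shallower sham. The shallower sham was highest for these 4 and not for Snora17, Snord55 and Snord104, which had 5, 3 and 8 reads there. Their estimates in the authors' deposited table were 2.08, 1.19 and -0.19. Many such RNAs lie within introns of host genes, so reads of the host can count toward them.

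Replication-dependent histone messages, which end in a stem-loop in place of a poly(A) tail, gave the larger list. Of 67 listed genes, 31 were tested; 5 fell in stroke, 1 rose, and the median log2 fold change was -4.66, beside 0.786% lower and 0.775% higher over all tested genes. Without the shallower sham the median, as log2 of (normalized reads + 1), was 0.34 against -0.10 over all recovered tested genes. The shallower sham was highest for 28 of the 31, beside 35.3% of all recovered tested genes, and 21 were at least 10 times above every other library there, beside 4.15%. Genes with means under 9.19 normalized reads were not tested, and many of these histones passed that mean only through the shallower sham. Hist1h4f had 94 reads there and 0 in every other library. The filter thus partly sets these counts and the median, and nothing is read from them. Hist1h4h had 8, 10 and 8 reads in stroke A, B and C, 5 in the deeper sham and 220 in the shallower sham. Hist4h4 had 3, 5 and 2 reads in stroke, 3 in the deeper sham and 114 in the shallower sham. Hist1h2bb (44 reads) and Hist1h1d (98 reads) were likewise high only in the shallower sham, as was Hist1h4k (146 reads), the other one that fell. These messages come from near-identical gene copies, so the split of reads between them is uncertain.

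Hist1h2al went the other way. It had 36, 59 and 34 reads in stroke A, B and C, 2 in the deeper sham and 0 in the shallower sham, and the authors' deposited table gives 5.02 (SE 1.24, adjusted p = 0.009 in DESeq2). The most abundant histone messages, Hist1h1c and Hist1h2bc, had log2 fold changes of -0.25 and -0.12 and did not pass. Their shallower sham values were 590 and 328 normalized reads, against 355 and 314 in the deeper sham. Among the spliceosomal and other U RNAs listed by symbol, only Rnu11, of the minor spliceosome, was tested. Rnu11 had 2, 5 and 3 reads in stroke, 0 in the deeper sham and 33 in the shallower sham. Its adjusted p was 0.54 in DESeq2. Small nuclear RNA genes with predicted names were not in this list. Some of them were tested, and those high in the shallower sham are counted further below.

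Further RNA polymerase III transcripts listed by symbol were nearly silent in the table. Any such genes with predicted names are not in this list. Of 190 rows for 5S, vault, signal recognition particle and related RNAs, 26 had any read and none was tested. The highest, n-R5s8, had 7, 4 and 3 reads in stroke A, B and C, 1 in the deeper sham and 0 in the shallower sham. Vaultrc5, a vault RNA, had 2, 2 and 1 reads in stroke, 0 in the deeper sham and 1 in the shallower sham. No recovered row had more than 3 reads in the shallower sham, and some had reads only there. Such counts are too low to tell whether these RNAs had an excess in that library. Many of these genes have several copies, and the labels do not say how reads that map to several places were treated.

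**Figure D4:**
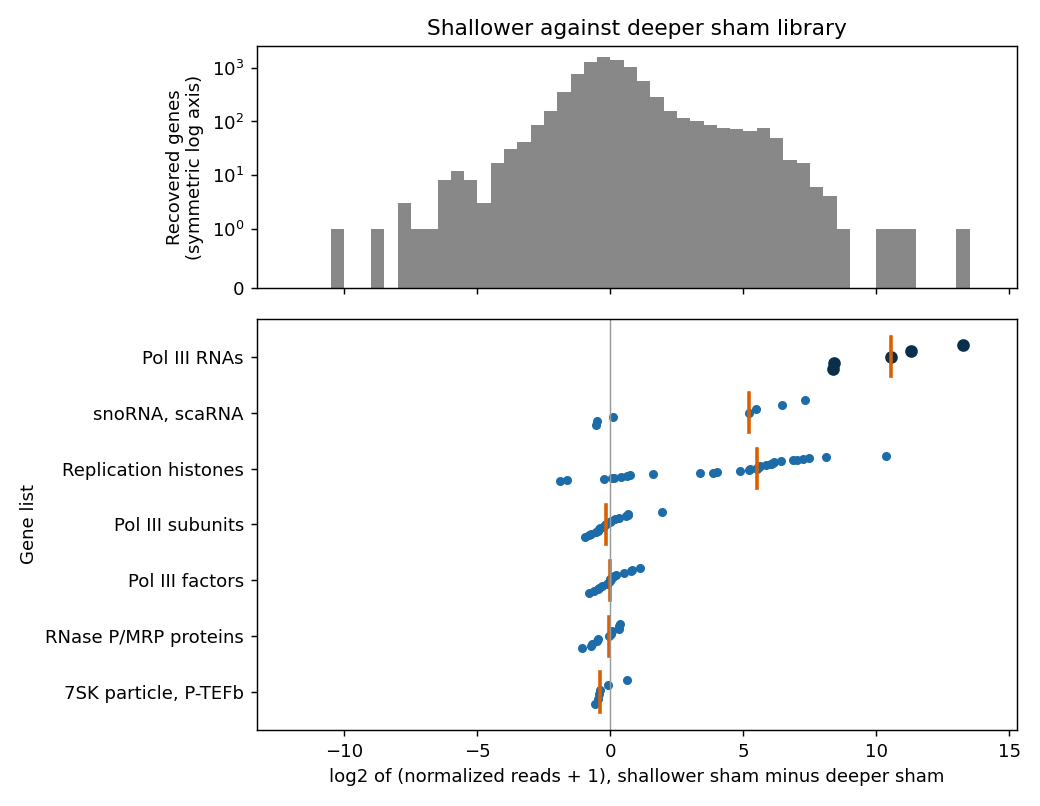
The upper panel counts recovered tested genes (symmetric log axis) by the log2 difference in normalized reads + 1 between the shallower and the deeper sham; the lower panel shows each recovered gene of a list as a point, with an orange line at the list's median. The Pol III RNAs lie between 8.37 and 13.25, many histone and small nucleolar or Cajal body RNAs near 5, and the protein lists around 0.

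The proteins that make these RNAs or bind them had no such excess in the shallower sham. None of 62 tested genes in 5 lists passed the authors' DESeq2 threshold, 3 had an unadjusted p under 0.05, and the median log2 fold change was -0.0025. Over all tested genes 1.56% passed and 10.5% had an unadjusted p under 0.05. Of the 52 with recovered reads, 13 were highest in the shallower sham and none reached 10 times the other libraries, beside 35.3% and 4.15% of all recovered tested genes. Without the shallower sham, as log2 of (normalized reads + 1), the list medians were -0.05 for the enzyme's subunits, -0.11 for its factors, -0.07 for RNase P and MRP proteins and -0.05 for the 7SK particle, against -0.10 over all recovered tested genes; of the Y RNA binding proteins only Ptbp1 was recovered, at 0.42. The largest difference between the sham libraries, on the scale of log2(normalized reads + 1), was 1.95 for Polr2k, a subunit shared by RNA polymerases, named after its value was seen.

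Among the 18 subunits of RNA polymerase III the median log2 fold change was 0.03. The most abundant ones, Polr3k and Polr3e, differed between stroke and sham by 0.06 (SE 0.25) and by 0.38 (SE 0.29) on the log2 scale of the authors' deposited table. Polr3k had 1013, 1111 and 1041 normalized reads in stroke A, B and C, 813 in the deeper sham and 1210 in the shallower sham, so its groups overlap. Among 19 transcription factors of the enzyme the median was -0.19. Gtf3c1, the largest subunit of TFIIIC, was at 0.01 (SE 0.17) and Bdp1, a subunit of TFIIIB, at -0.43 (SE 0.38).

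The 11 proteins of RNase P and RNase MRP had a median log2 fold change of 0.12. Pop5 had 679, 760 and 615 normalized reads in stroke A, B and C, 735 in the deeper sham and 523 in the shallower sham. Rpp14 lay between 522 and 634 in all 5 libraries. Neither protein was high in the shallower sham, where the RNAs of both enzymes were at 30302 and 10647 normalized reads.

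The 7 proteins of the 7SK particle and P-TEFb had a median log2 fold change of -0.04. Larp7, which binds the 3′ end of 7SK, had 409, 406 and 311 normalized reads in stroke A, B and C, 269 in the deeper sham and 249 in the shallower sham. Every stroke library was above both sham libraries for Larp7, but its log2 fold change of 0.53 (SE 0.27) had an adjusted p of 0.46 in DESeq2. Cdk9, the kinase of P-TEFb, was at 0.37 (SE 0.25), and its cyclin partners Ccnt1 and Ccnt2 at -0.02 (SE 0.29) and -0.21 (SE 0.22). Mepce, which caps 7SK, was at -0.04 (SE 0.24), and the P-TEFb inhibitors Hexim1 and Hexim2 at -0.10 (SE 0.24) and -0.42 (SE 0.33). These are the authors' deposited values, none of which passed.

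The 7 proteins that bind Y RNAs or new RNA polymerase III transcripts had a median log2 fold change of 0.17, and none passed. Trove2, the Ro60 protein, was at -0.11 (SE 0.31) and Ssb, the La protein that binds the U run at the 3′ end, at 0.01 (SE 0.23). Ptbp1, a splicing regulator, was at 0.59 (SE 0.24, adjusted p = 0.26 in DESeq2), with 815, 789 and 946 normalized reads in stroke A, B and C, 634 in the deeper sham and 497 in the shallower sham. The RNA-binding proteins Hnrnpk, Puf60, Matr3 and Ncl lay between 0.04 and 0.34.

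The genes next to the 5 RNAs had no such excess in the shallower sham. Parp2, a repair enzyme gene, starts 73 bases from Rpph1 on the opposite strand and had 264, 294 and 314 normalized reads in stroke A, B and C, 339 in the deeper sham and 300 in the shallower sham. Ccdc107 overlaps Rmrp on the opposite strand and had 334, 339 and 280 normalized reads in stroke, 405 in the deeper sham and 264 in the shallower sham. Its log2 fold change in the authors' deposited table was -0.08 (SE 0.30). Ick, 3195 bases from Rn7sk, ran from 513 to 890 normalized reads, and Pdia4, 7960 bases from Rny1, from 607 to 985. Both were highest in the shallower sham, with 849 and 831 normalized reads in the deeper sham. Ttc5 lies 21929 bases from Rpph1 and ran from 328 to 460 normalized reads. Arhgef39, beside Rmrp, ran from 9.53 to 19.0, and Ccnb1ip1, which overlaps Rpph1 on the same strand, had no read. Sit1 and Rpl31-ps7 had means under 1 normalized read. A long noncoding RNA with a predicted name, 280 bases from Rn7sk, had 69.1, 49.5 and 60.02 normalized reads in stroke A, B and C, 65.6 in the deeper sham and 84.5 in the shallower sham. A predicted gene beside Rny3 had no read. The labels do not say whether counting used the strand, so reads of overlapping genes may be shared.

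The 353 genes at 10 times or more in the shallower sham included all 5 RNAs, which ranked 1 (Rn7sk), 2 (Rpph1), 3 (Rmrp), 40 (Rny3) and 163 (Rny1) by the ratio to the next library. By the annotation, 93.8% of the 353 were not protein-coding, against 3.13% of the 32 in the deeper sham. They included 268 transcript models of the TEC class, which await experimental support, 15 sense intronic RNAs, 10 small nucleolar RNAs, 6 small Cajal body RNAs and 6 small nuclear RNAs. The class of miscellaneous RNAs had 4, among them Rn7sk, Rny1 and Rny3, and the ribozyme class had 2, Rpph1 and Rmrp. The 22 protein-coding ones included 21 from the histone list. Many of the 353 had few reads elsewhere and were tested only through their reads in the shallower sham. The 5 RNAs were chosen with their stroke against sham values known, so their ranks are a description. The part of these other RNAs in the stroke against sham values of the 5 RNAs was not tested.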

How the data were processed

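The authors deposited 1 table for the series. Per the submitters' processing notes, the authors worked on GRCm38 with DESeq2 1.14.1, featureCounts 1.5.1, STAR 2.5.2b and FastQC. The deposited columns are the authors' mean of normalized reads (a signal), log2 fold change with its standard error, Wald statistic (a score), and p-value with its adjusted form, which the authors' tool left out for genes with means under 9.19. The deposited columns hold no count per library, so the authors' DESeq2 values are the main result. Reads recovered as described below were used for levels per library and in limma, and DESeq2 and edgeR were not run on them.

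Size factors were read from genes with 1 read in 1 library and refined on 8626 genes. Sets of whole reads were then searched whose mean, fold change and standard error, refitted as the authors' model does, equal the deposited ones; the fold change had to match within 2e-09. In 300 genes with the mean shifted on purpose by a small amount none was accepted, against all 300 with the mean unshifted. On simulated data 193 of 195 genes gave back their reads and none gave a wrong set. Expected reads in the simulation were kept far below those of Rn7sk, Rpph1 and Rmrp in the shallower sham. The simulation therefore does not cover levels as high as theirs. For Rn7sk a second set was rejected. It had 248, 129 and 163 reads in stroke A, B and C, 100301 in the deeper sham and 66296 in the shallower sham. With it, both sham libraries would be high. It missed the last digit of the mean by 0.649 units, against 0.506 for the accepted set (0.5 plus the error of the size factors was allowed). It also implies a dispersion (spread between replicates beyond counting) of 0.0648, where the deposited standard error and the accepted set both give 2.63. The library totals, and so absolute depth, are unknown; size factors give relative depth.

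Intervals are exact, at 95%. A count of 0 is taken to allow 3 reads. As an alternative added after the data were seen, limma 3.58.1 (R 4.3.3, trend and robust) was run on log2(normalized recovered reads + 1) of 8507 genes. On simulated data with 200 genes of 8507 changed 4-fold between stroke and sham it recovered 44.5% of them. Sequences and coordinates are from GENCODE M21, which holds 51633 of the 51912 gene IDs. The members and lists were chosen with earlier results of these data known. Of each list the text names called genes, up to 5 by adjusted p, then the 2 uncalled ones with the largest mean, and all tested genes of lists with 8 or fewer; also neighbors and the 3 nearest profiles, leaving out predicted gene names.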

Additional observations from a re-analysis of the deposited data

How the results depend on the processing

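The sign of the fold change rested on the shallower sham library. Without it, log2 fold changes from the recovered reads were 0.28 for Rn7sk, 3.60 for Rpph1, 2.05 for Rmrp, 3.14 for Rny3 and, with 3 reads set for the deeper sham, 1.72 for Rny1. Over all libraries left out in turn they ran from -10.28 to 0.28 for Rn7sk, -10.20 to 3.60 for Rpph1, -9.66 to 2.05 for Rmrp, -6.19 to 3.14 for Rny3 and -5.02 to 1.72 for Rny1. The ratio of means, pseudocounts of 1 and 5, and scaling by median of ratios or upper quartile kept every value below 0. With a pseudocount of 5, Rny3 was at -4.60 and Rny1 at -3.50. Each value moved by less than the pooled spread between replicates. That spread includes the shallower sham and was 3.55 to 5.46 on the log2 scale, a limit that such changes would hardly exceed.

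Tested against a fold of 1.5, 1 of the 5 RNAs passed, beside 0.258% of all 17420 tested genes. In limma on the recovered reads 0 of 5 passed with all 5 libraries (0 at an unadjusted p under 0.05, and 3 in the authors' DESeq2 test). Without each stroke library in turn limma called 0 of the 5, beside 0% of all recovered tested genes. Without the deeper sham its log2 fold changes ran from -10.34 to -5.28. Without the shallower sham they ran from 0.21 to 3.13, all 5 estimates being higher in stroke. In these fits the lone sham is assumed to vary like the stroke libraries.

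For small nucleolar and Cajal body RNAs the count of 3 became 2 with adjustment over every gene with a p-value, 1 against a fold of 1.5, and 0 in limma (0 to 4 with a library left out). For histones the count of 6 became 4, 0 and 0 (0 to 24), the 24 being without the deeper sham, where limma called 19.1% of all recovered genes. With adjustment over genes at or above 5 CPM (of the summed means) the counts were 1 and 0. Only 1 small RNA and 5 histones of the 31 were tested there. Of all genes tested in each setting, 0.591% passed with adjustment over every gene with a p-value. The share was 0.258% against a fold of 1.5, 1.23% at or above 5 CPM and 0.0235% in limma with all 5 libraries. In limma with all 5 libraries, and without each stroke library in turn, no gene of the protein lists or the U RNA list passed. It covered 18 RNA polymerase III subunits, 16 factors, 11 RNase P and MRP proteins and 6 genes of the 7SK particle list. Of the Y RNA binding proteins and the U RNAs it covered 1 each, Ptbp1 and Rnu11. Over all recovered tested genes, 0.0235% passed with all libraries and 0% without a stroke library. Fits with 1 sham library left are not counted for these lists.

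Exactly 1 read set per RNA was found for 5 of 5, for 4 with a mean tolerance 10 times wider, where Rn7sk had 5 sets, for 1 with it 10 times narrower, which is below the rounding of the table, and for 3 from mean and fold change alone. No paired analysis was possible because the table has no column per library and nothing ties the recovered libraries to the replicate numbers in the labels. Levels under about 3 reads, as for Rpph1 and both Y RNAs in the deeper sham, are limited by depth.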
